A study of Caenorhabditis elegans with 8 samples.

Results

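Ferritins store iron, and the NRAMP transporters and HRG proteins move iron and heme between compartments. The 9 genes described here are the ferritin genes ftn-1 and ftn-2, the NRAMP-type divalent metal transporter genes smf-1, smf-2 and smf-3, and the heme-responsive genes hrg-1, hrg-3, hrg-4 and hrg-11.2 of Caenorhabditis elegans. They were taken by symbol from the platform annotation, out of 17118 genes that had a probe set with 1 symbol. The probe set of each gene was chosen by its signal, as the brightest 1-symbol probe set by mean log2 over the 8 arrays, and that mean is given as a description only. Differences between groups were not part of the rule. The genes were however picked with results of these arrays known, among them large changes of ftn-1 and hrg-11.2, so their calls describe these arrays.

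All worms were of the laboratory strain N2, spent their adult life on plates containing the DNA synthesis inhibitor FUDR, which keeps progeny from developing, and were collected on day 4 of adulthood. The 4 groups of 2 arrays were fasted worms without cholesterol, fed worms without cholesterol, fasted worms with cholesterol and fed worms with cholesterol. Cholesterol, which this nematode cannot make, was withheld from hatching. Fasting began on day 2 according to the protocol, which gives 48 h, while the source names give 24 h, so its length is uncertain.

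Iron is held in a mineral core inside ferritin shells, and C. elegans has 2 ferritin genes, ftn-1, expressed mainly in the intestine, and the more widely expressed ftn-2. When iron is scarce, ftn-1 transcription falls and that of smf-3, the main iron importer of the intestine, goes up, both through the hypoxia-inducible factor HIF-1, while GATA factors of the intestine drive ftn-1. Reduced insulin signalling raises ftn-1 through the FOXO factor DAF-16. The worm makes no heme and takes it from food: HRG-4 imports it at the intestinal surface, HRG-1 moves it out of lysosome-related stores, and HRG-3 is secreted to deliver it to other tissues and to embryos.

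The measurement is an RMA intensity on a linear scale, 1 per probe set and array. Array medians lay between 66.7 and 70.9 intensity units, and the correlation of log2 values between the replicates of any group was 0.992 to 0.994. A change is a difference of group means of log2(intensity + 1), given with its standard error (n = 2 arrays per group). This is the moderated error of limma, with a spread pooled over the 4 groups and drawn towards that of other probe sets. For ftn-1 the SD went from 0.44 pooled to 0.33 moderated, and for hrg-4 from 0.06 to 0.10. The words "rose" or "fell" stand for an adjusted p under 0.05 by limma with Benjamini-Hochberg adjustment over 22548 probe sets. Levels are compared between groups for 1 probe set at a time, never between genes. The replicate numbers 1 and 2 recur in all 4 groups and same-numbered arrays deviated together, so a fit with the replicate number as a block was run as well, and its adjusted p is given where it alters a call.

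Of the 9 genes, 2 changed in the fit without the block, ftn-1 and hrg-11.2. On fasting without cholesterol 1 rose (ftn-1), 1 fell (hrg-11.2) and 7 did neither, where 2.91% of all probe sets were called (0.989% higher and 1.92% lower). On fasting with cholesterol 1 fell (hrg-11.2) and 8 did neither, where 5.16% of all probe sets were called (2.03% higher and 3.14% lower). In fed worms, deprivation lowered 1 (ftn-1) and 8 did neither, where 1.21% of all probe sets were called (0.696% lower). By limma, 0 of the 9 were called for deprivation in fasted worms and 0 for the difference between the fasting responses (2 each at an unadjusted p under 0.05), where 1.1% and 0.0976% of all probe sets were called. With the replicate block the number called was 3 on fasting without cholesterol, 3 on fasting with it, 1 and 2 on deprivation of fasted and of fed worms, and 2 for the difference. The background was then 7.67%, 13.8%, 3.48%, 4.38% and 0.51% of all probe sets in the same order.

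**Figure D1:**
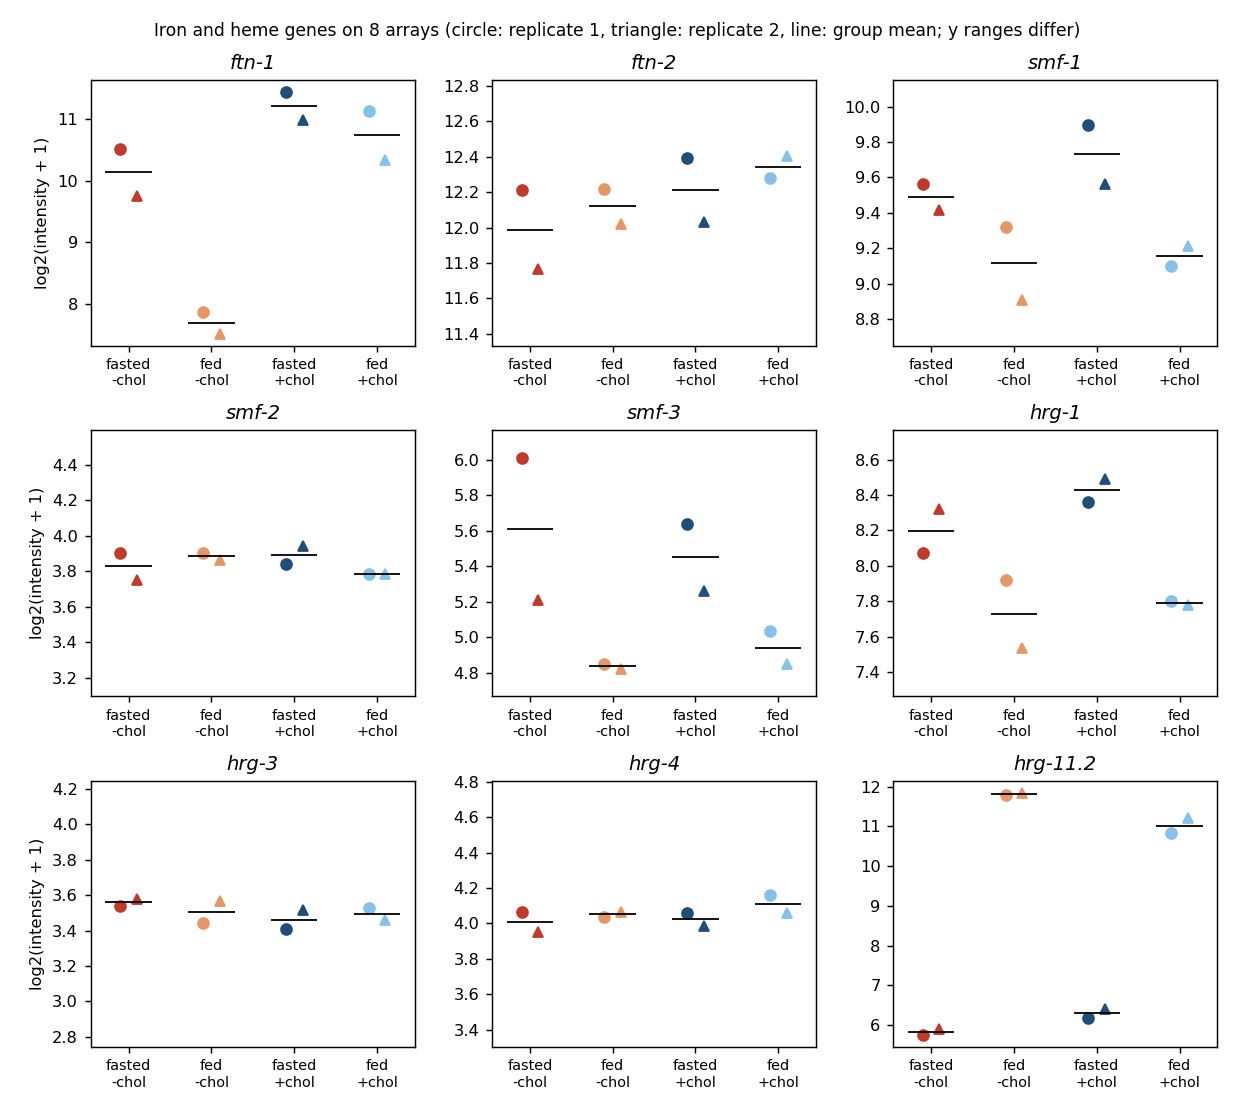
Each panel shows 1 gene, with log2(intensity + 1) on the y axis and the 4 groups on the x axis, deprived worms (-chol) left of undeprived worms (+chol). Circles are replicate 1, triangles are replicate 2 and lines are group means; y ranges differ between panels. The mean of ftn-1 lay at 7.69 in fed deprived worms and between 10.14 and 11.22 in the other groups, while hrg-11.2 lay at 5.84 and 6.30 in the fasted groups and at 11.82 and 11.02 in the fed groups.

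The ferritin gene ftn-1 was low in 1 group. Its intensity was 1460 and 864 in fasted deprived worms, 233 and 182 in fed deprived worms, 2787 and 2037 in fasted worms with cholesterol and 2241 and 1299 in fed worms with cholesterol (replicates 1 and 2 each). Both fed deprived arrays lay below the other 6, and in each group replicate 1 was the higher. In order of group means, fasted worms with cholesterol came first (11.22 ± 0.32 on the log2 scale, SD, n = 2), then fed worms with cholesterol (10.74 ± 0.56), fasted deprived worms (10.14 ± 0.53) and fed deprived worms (7.69 ± 0.25). The arrays of neighbours overlapped at the first and second steps of that order and did not at the third.

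Deprivation lowered ftn-1 in fed worms by a log2 change of -3.04 ± 0.33 (adjusted p = 0.0103), an 8.25-fold lower level. The change was -3.26 between arrays of replicate 1 and -2.83 between arrays of replicate 2. That call was lost without replicate 1 of the fed worms with cholesterol (-2.65, adjusted p = 0.0739), without replicate 1 of the fed deprived worms (-3.22, adjusted p = 0.0596) and without their replicate 2 (-2.87, adjusted p = 0.0721). In the other 13 of 16 alternatives it held, and adjusted p over all 16 ran between 0.000108 and 0.0739.

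Fasting raised ftn-1 in deprived worms by 2.44 ± 0.33 (adjusted p = 0.0114), a 5.44-fold higher level. Between same-numbered arrays the change was 2.64 and 2.24. The call held in 15 of 16 alternatives and was lost without replicate 2 of the fed deprived worms (2.27, adjusted p = 0.0851). With cholesterol, the fasting change of ftn-1 was 0.48 ± 0.33 (95% interval -0.30 to 1.26, adjusted p = 0.413), and the arrays of the 2 groups overlapped. With the replicate block that adjusted p was 0.0505.

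In fasted worms the change of ftn-1 on deprivation was -1.08 ± 0.33 (adjusted p = 0.233, and 0.00476 with the replicate block), or -0.93 and -1.24 between same-numbered arrays, with no overlap of the groups. The fasting response of ftn-1 without cholesterol exceeded that with cholesterol by 1.96 ± 0.47 on the log2 scale (95% interval 0.86 to 3.07). This difference did not pass without the block (adjusted p = 0.376) and passed with it (adjusted p = 0.00853, SE 0.19). The fasting contrast with cholesterol and the deprivation contrast of fed worms share the 2 arrays of fed worms with cholesterol, and the low ftn-1 arrays of fed deprived worms enter both the called contrasts, so these values are not independent of one another.

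The second ferritin gene, ftn-2, was not called in any contrast. Its intensity was 4740 and 3484 in fasted deprived worms, 4762 and 4159 in fed deprived worms, 5383 and 4192 in fasted worms with cholesterol and 4962 and 5409 in fed worms with cholesterol. Arrays of neighbouring groups overlapped throughout the order of means, with 11.99 ± 0.31 (SD, n = 2) in fasted deprived worms at the bottom and 12.34 ± 0.09 in fed worms with cholesterol at the top. The change of ftn-2 on deprivation of fed worms was -0.22 ± 0.18, with a 95% interval of -0.65 to 0.21, where ftn-1 had an interval of -3.83 to -2.26. On fasting without cholesterol ftn-2 changed by -0.13 ± 0.18 (-0.56 to 0.30), where the interval of ftn-1 was 1.66 to 3.22. A dimmer ftn-2 probe set changed by -0.20 on deprivation of fed worms and by -0.17 on fasting without cholesterol, and was not called either. The probe set of ftn-2 lies at the 98.5th percentile of mean signal, near the top of the scale.

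Among the NRAMP transporters, smf-3 was higher on every fasted array than on the fed arrays of the same cholesterol state. Non-overlap in either direction was seen for 46.2% and 57% of all probe sets without and with cholesterol. The smf-3 probe set is dim, at the 35.4th percentile of mean signal. Its intensity was 63.5 and 36.0 in fasted deprived worms, 27.9 and 27.3 in fed deprived worms, 48.9 and 37.3 in fasted worms with cholesterol and 31.7 and 27.8 in fed worms with cholesterol. The fasting change was 0.78 ± 0.25 without cholesterol (adjusted p = 0.192, and 0.0346 with the replicate block). It was 0.51 ± 0.25 with cholesterol (adjusted p = 0.268, and 0.0878 with the block). Without cholesterol the change was 1.16 between arrays of replicate 1 and 0.39 between arrays of replicate 2. Leaving out each array in turn gave changes between 0.37 and 1.18 in the fit without the block. The change without cholesterol passed in 2 of 15 alternatives. Deprivation changed smf-3 by 0.16 ± 0.25 in fasted and by -0.10 ± 0.25 in fed worms, and neither passed. A probe set shared by smf-3 and daao-1 changed by -0.08 on fasting without cholesterol and by -0.07 with it, opposite in sign to the smf-3 probe set, and it cannot be assigned to 1 gene.

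The transporter gene smf-1 had an intensity of 755 and 683 in fasted deprived worms, 639 and 479 in fed deprived worms, 952 and 757 in fasted worms with cholesterol and 548 and 592 in fed worms with cholesterol. Fasted arrays lay above fed arrays at both cholesterol states. The change with cholesterol was 0.57 ± 0.17 (adjusted p = 0.104, and 0.0329 with the replicate block). Without cholesterol it was 0.37 ± 0.17 (adjusted p = 0.357, and 0.162 with the block). On deprivation smf-1 changed by -0.24 ± 0.17 in fasted and by -0.04 ± 0.17 in fed worms. Its neighbour on the X chromosome, smf-2, with 0 protein-coding genes starting between them in the RefSeq table, had a dim probe set at 12.4 to 14.4 intensity units on all 8 arrays. Its changes in the fasting and deprivation contrasts lay between -0.06 and 0.10 and the difference between its fasting responses was -0.16, each with an interval that included 0.

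The heme transporter gene hrg-1 was also higher on all fasted arrays than on the fed arrays of its cholesterol state. It had 268 and 319 intensity units in fasted deprived worms, 241 and 185 in fed deprived worms, 327 and 359 in fasted worms with cholesterol and 222 and 218 in fed worms with cholesterol. With cholesterol it changed by 0.64 ± 0.15 on fasting (adjusted p = 0.0619, and 0.0316 with the replicate block), which is 1.55-fold. That value also passed after cyclic loess (0.68, adjusted p = 0.0478) and after a shift of the arrays to an equal median of bright probe sets (0.73, adjusted p = 0.0298). With the block these were the only 3 of 16 alternatives that passed, and leaving out each array gave 0.57 to 0.70. Without cholesterol the change of hrg-1 was 0.47 ± 0.15 (adjusted p = 0.192, and 0.114 with the block). The difference between these responses was -0.17 ± 0.22 (95% interval -0.68 to 0.34).

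The heme importer gene hrg-4 and the heme carrier gene hrg-3 stayed near the bottom of the scale. Over the 8 arrays hrg-4 lay between 14.5 and 16.9 and hrg-3 between 9.63 and 10.95 intensity units, where the lowest probe set of an array was at 7.49 to 8.02. Every interval of their changes included 0, and the widest reach was that of hrg-3 in the difference between fasting responses, at -0.25 to 0.43. No detection call was used here, and log2(intensity + 1) understates changes of dim probe sets, so these values of hrg-3, hrg-4 and smf-2 set no limit on the change of the transcripts.

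The gene hrg-11.2, named as heme-responsive, had the largest changes of the 9 in both fasting contrasts. Its intensity was 53.2 and 59.1 in fasted deprived worms, 3547 and 3671 in fed deprived worms, 71.9 and 84.3 in fasted worms with cholesterol and 1823 and 2355 in fed worms with cholesterol. All 4 groups were apart: fed deprived worms came first (11.82 ± 0.04 on the log2 scale, SD, n = 2), then fed worms with cholesterol (11.02 ± 0.26), fasted worms with cholesterol (6.30 ± 0.16) and fasted deprived worms (5.84 ± 0.10).

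On fasting hrg-11.2 fell by 5.98 ± 0.15 on the log2 scale without cholesterol (adjusted p = 5.13e-06), a 63.2-fold lower level. With cholesterol it fell by 4.72 ± 0.15 (adjusted p = 2.37e-05), a 26.3-fold lower level. Both calls held in all 16 alternatives, with values between -6.06 and -5.91 without cholesterol and between -4.90 and -4.53 with it. Deprivation changed hrg-11.2 by -0.47 ± 0.15 in fasted worms (adjusted p = 0.252, and 0.0705 with the replicate block). In fed worms the change was 0.80 ± 0.15 (adjusted p = 0.0636, and 0.00869 with the block). It passed there also after cyclic loess (0.82, adjusted p = 0.0438) and the bright-set shift (0.83, adjusted p = 0.0444). With the block these were the only 3 of 16 alternatives that passed, and leaving out each array gave 0.62 to 0.98. The fasting response without cholesterol was lower than that with cholesterol by a difference of -1.27 ± 0.21 (adjusted p = 0.176, and 0.0233 with the block).

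**Figure D2:**
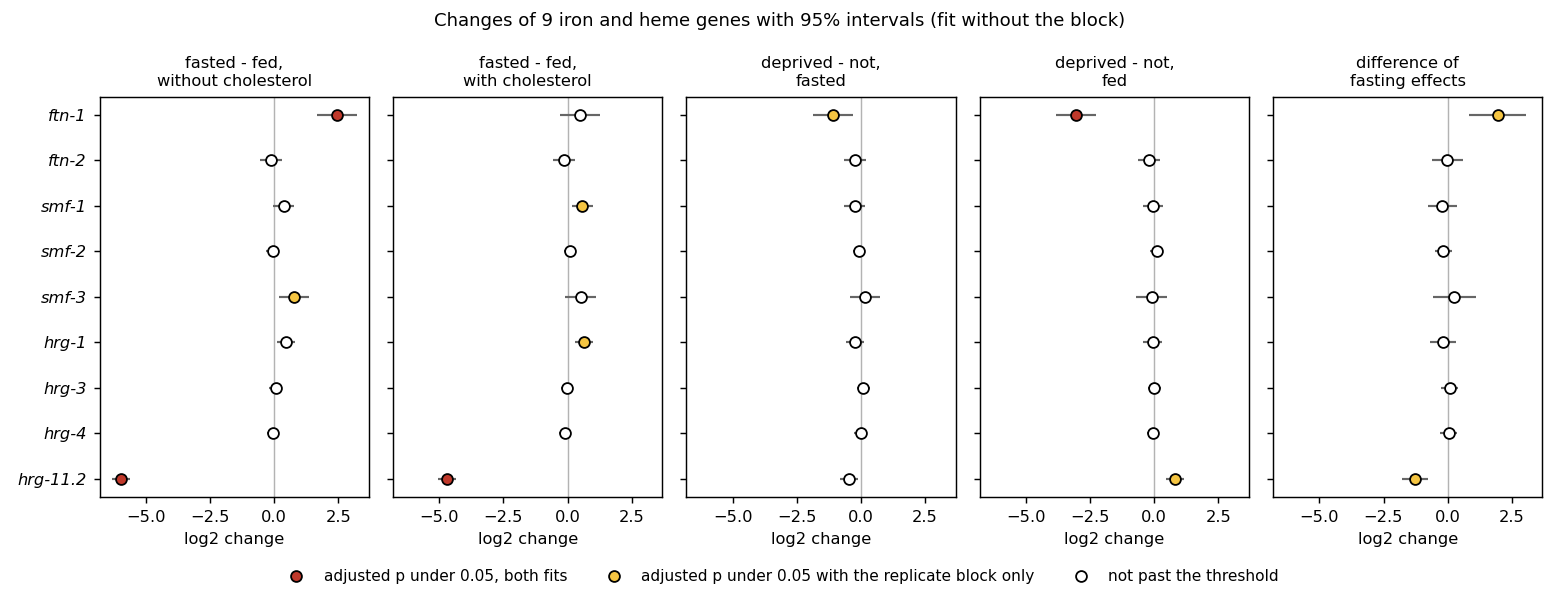
The log2 change (x axis, dots) of each gene (rows) is plotted with its 95% interval from the fit without the block, in 5 panels for the contrasts. Red dots passed in both fits, yellow dots passed with the replicate block and not without it, and white dots passed in neither; ftn-1 and hrg-11.2 hold the 4 red dots, and 7 dots are yellow.

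A count of non-overlapping arrays says little here. On fasting, the arrays of fasted and fed worms did not overlap for 5 of the 9 genes without cholesterol and for 6 with it, where 46.2% and 57% of all probe sets did not overlap. On deprivation the counts were 5 in fasted and 4 in fed worms, where the background was 44.9% and 47.4%. The median change of the 9 was 0.05 and 0.10 on fasting without and with cholesterol and -0.23 and -0.06 on deprivation of fasted and fed worms. Over all probe sets these medians were -0.02, 0.08, -0.05 and 0.05 in that order.

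**Figure D3:**
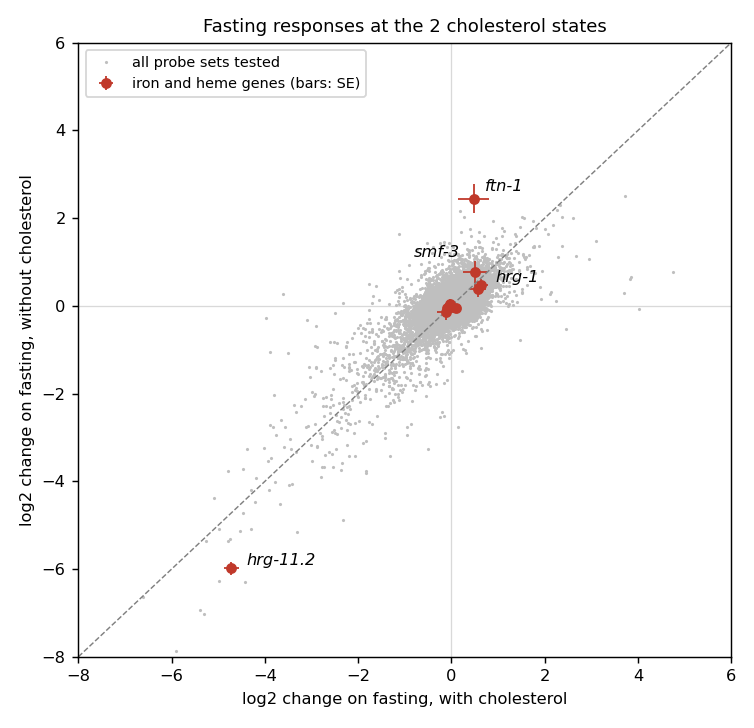
Each probe set is placed by its log2 change on fasting with cholesterol (x axis) and without cholesterol (y axis), in grey for all probe sets and in red with standard errors for the 9 genes. The dashed line marks equal responses; ftn-1 lies above it at 0.48 and 2.44, hrg-11.2 lies below it at -4.72 and -5.98, and the others are within 0.78 of 0 on both axes.

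Other genes of iron and heme handling were taken as 5 lists. By adjusted p, 2.91% and 5.16% of all probe sets were called on fasting without and with cholesterol. On deprivation of fasted and fed worms 1.1% and 1.21% were called, and 0.0976% for the difference between fasting responses. At an unadjusted p under 0.05 stood 15.6% and 23.8% of all probe sets on fasting without and with cholesterol, 14% and 13.7% on deprivation of fasted and fed worms and 10.4% for the difference between fasting responses, against which the unadjusted counts below can be read. Among 7 measured regulators (of 9 listed; hif-1 and egl-9 had no value) limma called 0 in every contrast, with 2, 2, 1, 1 and 0 at an unadjusted p under 0.05 (fasting without and with cholesterol, deprivation of fasted and of fed worms, and the difference between fasting responses). Their medians were 0.07 and 0.05 on fasting without and with cholesterol and 0.06 and -0.06 on deprivation of fasted and fed worms. The intestinal GATA factor gene elt-2 changed by -0.45 ± 0.15 on fasting without cholesterol (adjusted p = 0.201, and 0.0377 with the replicate block). In fed worms elt-2 changed by 0.45 ± 0.15 on deprivation (adjusted p = 0.246, and 0.0521 with the block). The FOXO gene daf-16 changed by 0.07 ± 0.24 on fasting without cholesterol and by 0.32 ± 0.24 on deprivation of fed worms, and neither passed. Only RNA was measured, so the activity of these factors is not seen here. Their part in the changes of ftn-1 was not tested. The cytosolic aconitase gene aco-1, whose mammalian counterpart is the iron regulatory protein, changed by 0.55 ± 0.14 on fasting with cholesterol (adjusted p = 0.0743, and 0.0395 with the block). There rhy-1, a gene of the HIF-1 pathway, changed by -0.47 ± 0.14 (adjusted p = 0.0949, and 0.0363 with the block).

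Among 4 genes of iron export and ferroxidase activity limma called 0 in every contrast, with 1, 4, 1, 1 and 1 at an unadjusted p under 0.05 in the same order. The medians were -0.02, -0.06, -0.12 and 0.15. The ferroportin homologue fpn-1.1 had the most negative values, -1.099 ± 0.34 on fasting without cholesterol (adjusted p = 0.173, and 0.0103 with the block) and -0.96 ± 0.34 with it (adjusted p = 0.149, and 0.0136 with the block). The ferroxidase-like gene F21D5.3 changed by 0.67 ± 0.13 on deprivation of fasted worms (adjusted p = 0.0803, and 0.035 with the block).

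Of the other hrg genes and the heme exporter gene mrp-5, 5 of 9 were measured. On fasting, 1.92% and 3.14% of all probe sets were called lower without and with cholesterol. Of these 5 genes, 1 fell on fasting at each cholesterol state with 4 not called. It was hrg-7, which encodes a secreted aspartyl protease homologue that carries heme status between tissues. Its intensity was 94.6 and 87.5 in fasted deprived worms, 313 and 257 in fed deprived worms, 166 and 160 in fasted worms with cholesterol and 553 and 374 in fed worms with cholesterol. On fasting it fell by 1.63 ± 0.19 on the log2 scale without cholesterol (adjusted p = 0.00552). With cholesterol it fell by 1.48 ± 0.19 (adjusted p = 0.00687). On deprivation hrg-7 changed by -0.83 ± 0.19 in fasted worms (adjusted p = 0.119, and 0.0175 with the block) and by -0.68 ± 0.19 in fed worms (adjusted p = 0.175, and 0.036 with the block). The arrays of the 4 groups of hrg-7 did not overlap. The heme-responsive gene hrg-13 changed by 0.62 ± 0.29 on fasting without cholesterol (adjusted p = 0.359, and 0.0431 with the block). The heme exporter gene mrp-5 was not called, at 0.46 ± 0.22 and 0.35 ± 0.22 on fasting without and with cholesterol. The medians of these 5 genes were 0.16, 0.12, -0.06 and -0.20 in the order above, with 0 called on deprivation (1 at an unadjusted p under 0.05 in fasted and 1 in fed worms).

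Among 8 measured genes of mitochondrial iron and iron-sulfur clusters (of 10 listed), limma called 0 in every contrast, with 0, 3, 2, 1 and 0 at an unadjusted p under 0.05. Their changes lay between -0.36 and 0.52, and the medians were -0.03, -0.05, 0.06 and 0.18. Of 34 measured heme proteins (of 39 listed, mostly globins), 1 rose on fasting with cholesterol and 33 did neither, where 2.03% of all probe sets were called higher. In the other contrasts 0 were called. At an unadjusted p under 0.05 were 12 on fasting with cholesterol and 4 in each of the other contrasts. It was cyc-1, cytochrome c1 of the respiratory chain, at 2266 and 2173 in fasted deprived worms, 1688 and 1910 in fed deprived worms, 2034 and 2205 in fasted worms with cholesterol and 1246 and 1385 in fed worms with cholesterol. It rose by 0.69 ± 0.11 (adjusted p = 0.0188), and changed by 0.31 ± 0.11 without cholesterol (adjusted p = 0.258). The list medians were 0.01, 0.18, -0.08 and 0.07. With the replicate block, 5 heme proteins were higher and 1 lower on fasting with cholesterol, where 6.66% and 7.11% of all probe sets were. Beside cyc-1 these were the globin genes glb-5 (0.44), glb-11 (0.56), glb-23 (0.45) and glb-27 (0.38), and the lower one was the globin gene glb-1 at -0.52. On deprivation of fed worms glb-1 changed by -0.53 ± 0.15 (adjusted p = 0.179, and 0.0431 with the block).

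**Figure D4:**
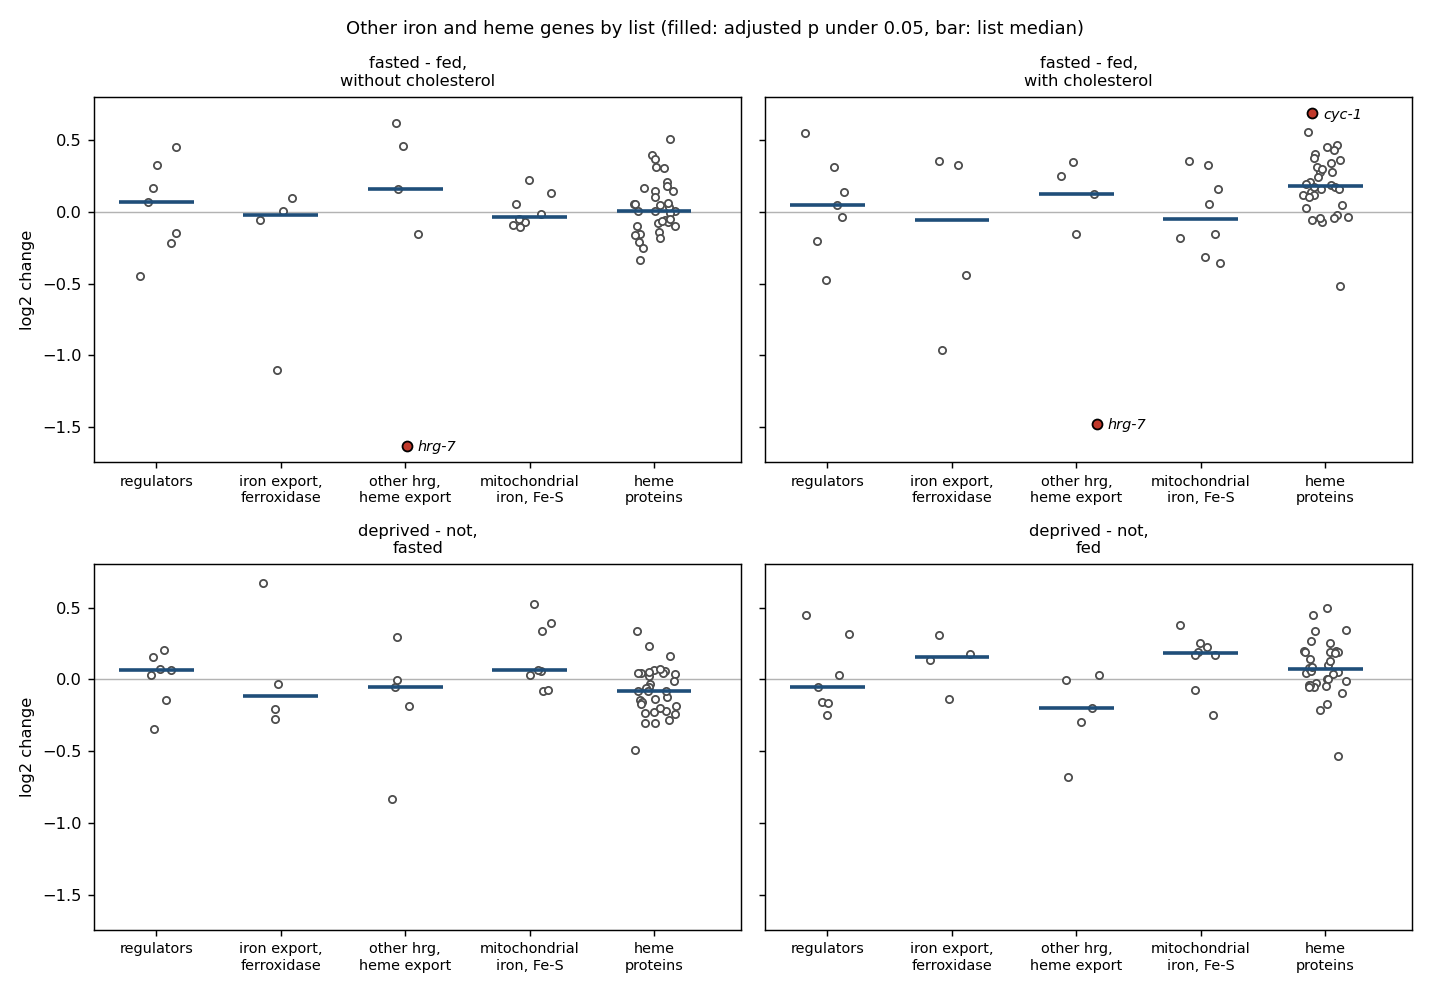
Each dot is 1 gene of the list on the x axis, with its log2 change on the y axis, in 4 panels for fasting and for deprivation. Filled dots passed without the block (hrg-7 on fasting at both cholesterol states and cyc-1 on fasting with cholesterol), and bars are list medians, which lie between -0.20 and 0.18.

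Genes with a pattern like that of ftn-1 and hrg-11.2 were sought by Pearson correlation of log2 values over the 8 arrays, a description that also carries the shared replicate deviations. The 3 with the highest r out of 12949 genes are given for each, so a high r was sought out. For ftn-1 the closest were sdz-9 (r = 0.979), dlg-1, a cell junction protein gene (r = 0.975), and T22H9.1 (r = 0.975). Their changes were far smaller than those of ftn-1: on deprivation of fed worms they were -0.57, -0.78 and -0.47, and on fasting without cholesterol 0.45, 0.58 and 0.45. For hrg-11.2 the closest were F09C8.1 (r = 0.996), drd-50 (r = 0.993) and the C-type lectin gene clec-41 (r = 0.993). As hrg-11.2 was high on all fed and low on all fasted arrays, a large fall on fasting can by itself give a high r. On fasting without cholesterol F09C8.1 changed by -3.38, drd-50 by -2.89 and clec-41 by -4.47, and with cholesterol by -2.56, -2.50 and -4.20.

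These are arrays of bulk RNA, so fewer cells of a type and less RNA per cell cannot be told apart. Intestinal markers moved with fasting, where 2.91% and 5.16% of all probe sets were called without and with cholesterol. Of 18 markers, 0 rose and 5 fell without cholesterol, and 1 rose and 6 fell with it. Among those that fell were the microvillar actin act-5 (-1.65 and -1.51) and the transporter pgp-1 (-2.34 and -2.18). The summed intensity of the 18 was 14635 to 15476 in fasted and 28192 to 30813 in fed deprived worms. With cholesterol it was 14947 to 15520 in fasted and 30040 to 34192 in fed worms. On deprivation, where ftn-1 fell in fed worms, the intestinal ranges of deprived and undeprived fed worms overlapped. There 1 marker rose (the peptide transporter pept-1, by 1.78) and 0 fell. By limma, 10 of the 18 were at an unadjusted p under 0.05 in fed worms, where 13.7% of all probe sets were. The changes of the 18 lay between -0.79 and 1.78, with a median of 0.14. In fasted worms 2 intestinal markers rose and 1 fell on deprivation. There 5 were at an unadjusted p under 0.05, where 14% of all probe sets were. By adjusted p, 1.1% and 1.21% of all probe sets were called on deprivation of fasted and fed worms. Body wall muscle markers, 12 in all, held 3 and 2 that fell on fasting without and with cholesterol and 3 that fell on deprivation of fasted worms. Their summed intensity was 6564 to 8885 in fasted deprived worms, 12023 to 12955 in fed deprived worms, 11208 to 12186 in fasted worms with cholesterol and 15560 to 16885 in fed worms with cholesterol. Hypodermal markers summed to 4563 to 5454 in fasted and 7146 to 8755 in fed deprived worms, and to 4894 to 6316 in fasted and 7716 to 9921 in fed worms with cholesterol. In the lists of 12 neuronal, 10 hypodermal and 16 germline and oocyte markers limma called 0 in every contrast (at an unadjusted p under 0.05 at most 3, 5 and 3). Neuronal markers summed to 5397 to 5399 in fasted and 4909 to 5055 in fed deprived worms, and to 4986 to 5041 in fasted and 4266 to 4525 in fed worms with cholesterol. Of 11 zygotic embryo markers 1 rose on fasting with cholesterol, and 7 were at an unadjusted p under 0.05 on deprivation of fasted worms with 0 called by limma. Their sums were 3980 to 4363 in fasted and 3975 to 4145 in fed deprived worms, and 2938 to 3311 in fasted and 3500 to 3509 in fed worms with cholesterol. The neuronal and embryonic sums of deprived worms thus lay above those of worms with cholesterol in fed worms, where ftn-1 fell, and in fasted worms. Marker by marker, however, the median embryonic change on deprivation was -0.09 in fed and -0.30 in fasted worms, opposite in sign to the sums. Single embryonic changes lay between -0.34 and 0.26 in fed and between -0.60 and 0.57 in fasted worms. The neuronal medians were 0.14 and 0.04. With the replicate block more markers passed. Of all probe sets, 7.67% and 13.8% then passed on fasting without and with cholesterol. On deprivation of fasted and fed worms 3.48% and 4.38% did. On fasting without cholesterol 10 intestinal, 7 muscle and 3 hypodermal markers were lower. On fasting with it 11 intestinal, 5 muscle, 2 germline and 1 neuronal marker were lower, and 2 intestinal and 2 embryonic markers were higher. On deprivation of fasted worms 5 muscle markers and 1 intestinal marker were lower, and 2 intestinal markers and 1 neuronal marker were higher. In deprived fed worms 2 intestinal markers were higher. For the difference between fasting responses 1 intestinal marker was lower, where 0.51% of all probe sets passed. The part of these markers in the changes of ftn-1, hrg-11.2 and hrg-7 was not tested. The names of the probe sets of ftn-1, ftn-2, smf-1, hrg-1 and hrg-11.2 end in _s_at, a mark of probes that can match more than 1 transcript, so their signal may include others.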

How the data were processed

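Labelled cRNA from 100 ng of total RNA per sample was hybridised to 1-colour Affymetrix arrays, per the labels' protocols. The deposited intensities were made by the authors with RMA, per the submitters' processing notes, version not given in the sources used here; they are on a linear scale. RMA equalises array distributions, so differences in total RNA are not visible. Precision is limited by the 2 arrays per group. Of 22625 probe sets, 77 Affymetrix controls were left out. The platform annotation gave 1 symbol to 20766, several to 887 and none to 895; 20701 matched the RefSeq table of assembly WBcel235 by gene number, used for names and neighbours only. No coordinates or sequences are given, and a planned motif search in promoters was not run.

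Values were taken as log2(intensity + 1) and fitted with limma 3.58.1 (lmFit, eBayes; R 4.3.3), 1 mean per group over 8 arrays, two-sided (degrees of freedom 4 from the residuals and 3.37 from the prior). The fit was also run on simulated data with independent arrays. Those data hold no shared replicate deviations, so they do not show how the fit does on these arrays. Figures used matplotlib 3.10.9 in Python 3.11.15. The labels call the replicates independent and number them 1st and 2nd in each group without saying what a number shares; the pairing rests on the data, since deviations of same-numbered arrays from their group means correlated at 0.218 to 0.530 in all 6 pairs of groups. Genes and lists were chosen with earlier results of these data known. Named genes were the 9, up to 4 called members per list and contrast, and the 3 most correlated genes of each called gene; list members that passed with the block alone, elt-2, daf-16, mrp-5 and the markers named were added after their values were seen. Alternatives were the replicate block, cyclic loess, the bright-set shift (equal median of the brightest 1 in 3 probe sets), no pseudocount, leaving out the dimmest 40% of probe sets, an intensity trend, fitting the compared groups alone, the mean of a gene's probe sets, and leaving out each array.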

Additional observations from a re-analysis of the deposited data

Results flagged for a closer look

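For 2 genes the fasting response differed between the cholesterol states by a test of the difference itself in the fit with the replicate block, and not in the fit without it. The fasting change of ftn-1 without cholesterol minus that with cholesterol was 1.96 on the log2 scale (adjusted p = 0.00853 with the block and 0.376 without it). The same difference for hrg-11.2 was -1.27 (adjusted p = 0.0233 with the block and 0.176 without it). The difference kept its sign in the 15 alternatives of each gene, between 1.57 and 2.35 for ftn-1 and between -1.45 and -1.08 for hrg-11.2.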

How the results depend on the processing

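With 2 arrays per group and deposited RMA values, array quality and background could not be examined. With the replicate block the count of called probe sets was 1730 for fasting without cholesterol (656 without the block), 3106 for fasting with it (1164), 785 and 988 for deprivation of fasted and fed worms (249 and 273) and 115 for the difference of fasting responses (22); called genes of the 9 became 3, 3, 1, 2 and 2. It changed no call of the 9 other than those given with their values above. Cyclic loess and the bright-set shift each called 2 of the 9 on fasting with cholesterol and 2 on deprivation of fed worms. The bright-set shift put 60.9% of called probe sets higher on fasting with cholesterol, against 39.3% as reported. The intensity trend called 42 probe sets for the difference. Fitting the compared groups alone called 333, 739 and 78 for fasting without and with cholesterol and deprivation of fasted worms. The filter on dim probe sets left out smf-2, smf-3, hrg-3 and hrg-4.

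Leaving out each array gave 258 to 582 and 381 to 1153 called probe sets for fasting without and with cholesterol, 61 to 157 and 25 to 284 for deprivation of fasted and fed worms and 0 to 8 for the difference. Of the 9, 1 to 3 were then called on fasting without cholesterol and 0 to 1 on deprivation of fed worms; the lost calls are those of ftn-1. No called value changed sign. Uncalled values did, and none passed. After cyclic loess these were hrg-4 on fasting without cholesterol (0.0032) and on deprivation of fasted worms (0.067), smf-2 there (0.012), hrg-3 on deprivation of fed worms (-0.033) and ftn-2 in the difference (0.0070). After the bright-set shift they were hrg-3 (0.061) and hrg-4 (0.0068) on fasting with cholesterol and hrg-4 in the difference (-0.035). Leaving out each array gave, on fasting with cholesterol, -0.31 to 0.055 for ftn-2 and -0.084 to 0.021 for hrg-3. Without cholesterol it gave -0.35 to 0.091 for ftn-2, -0.14 to 0.022 for smf-2, -0.0098 to 0.12 for hrg-3 and -0.10 to 0.016 for hrg-4. On deprivation of fed worms it gave -0.25 to 0.17 for smf-1, -0.25 to 0.13 for hrg-1 and -0.053 to 0.074 for hrg-3, and of fasted worms -0.14 to 0.015 for smf-2, -0.24 to 0.56 for smf-3 and -0.072 to 0.045 for hrg-4. For the difference it gave -0.23 to 0.22 for ftn-2, -0.41 to 0.0080 for smf-1, -0.14 to 0.67 for smf-3, -0.36 to 0.022 for hrg-1 and -0.015 to 0.10 for hrg-4. The causes were not tested.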
